A study of Mus musculus with 3 samples.

Results

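The Toll-like receptor genes are described here as they were found on the chromatin of Lipid A-treated mouse macrophages. The members were chosen by gene symbol and are Tlr1, Tlr2, Tlr3, Tlr4, Tlr5, Tlr6, Tlr7, Tlr8, Tlr9 and Tlr13, which are 10 of the 55536 annotated genes in the deposited gene tables. All 10 were present in the tables, and 9 were detected, a gene being called detected at a mean of at least 10 expected counts per library. Tlr5 was the member below that minimum. The series held 3 libraries of 1 group, numbered as biological replicates 1, 2 and 3. The C57BL/6J cells were macrophages grown in culture from bone marrow, and the donors' sex and age were not recorded. The cells received 100 ng/ml Lipid A for 12 h, were kept without it for 12 h and received 100 ng/ml Lipid A again for 40 min. The chromatin fraction, which is rich in RNA still being made and holds introns as well as exons, was depleted of ribosomal RNA and sequenced. All 3 libraries carry the same treatment and the same donor label, which names the strain and no single animal, so the spread between them may be technical. With no untreated cells analysed here, levels are described and no induction or repression is given. The libraries were started from unequal amounts of RNA, 1 µg in replicate 1, 250 ng in replicate 2 and 500 ng in replicate 3, so input, depth and library cannot be told apart.

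Toll-like receptors are membrane proteins that recognise conserved molecules of microbes through a domain of leucine-rich repeats and signal through a cytoplasmic domain that recruits adaptor proteins. Tlr1, Tlr2, Tlr4, Tlr5 and Tlr6 encode receptors of the cell surface, where bacterial lipopeptides, lipopolysaccharide and flagellin are sensed. Tlr3, Tlr7, Tlr8, Tlr9 and Tlr13 encode receptors of endosomes, where nucleic acids are sensed and where proteases cleave the receptors into their active form. Most members signal through the adaptor Myd88, Tlr3 signals through Ticam1, also called TRIF, and Tlr4 uses both. In macrophages the family starts the inflammatory response to microbes, and Lipid A, the membrane anchor of lipopolysaccharide, acts through Tlr4 together with its partner Ly96, also called MD-2.

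Replicates 1, 2 and 3 held 13802716, 17187524 and 16502809 expected counts over annotated genes, of which the 10 members together held 10763, 11863 and 12746. Where a gene had no count, up to 3 counts remain possible, which is 0.217, 0.175 and 0.182 CPM (counts scaled to a fixed library total). These limits hold for counting error alone, since no molecular identifiers separate copies of 1 molecule. TPM values divide counts by transcript length before that scaling and were used wherever genes are compared with each other. Protein-coding genes took 27.5%, 30.8% and 32.0% of all TPM in the 3 libraries, so TPM also moved with the remaining RNA. All 8 macrophage markers looked at, among them Adgre1 and Csf1r, were detected, with summed levels of 959 to 1102 TPM. Among the markers of other cells, those of T and natural killer cells were at 0 counts in all 3 libraries of the gene tables for 6 of 6 genes, and 0 of 7 neutrophil markers were detected there. From the reads 2 of the 6 and 1 of the 7 averaged at least 10 counts, Cd3d with 13.3, 13.8 and 19.7 TPM, Cd3g with 0.449, 0.849 and 0.491 TPM, and Mmp8 with 0.153 to 0.267 TPM. In the gene tables, of 6 markers each, 1 was detected for plasmacytoid dendritic cells (summed 2.14 to 3.80 TPM), 2 for conventional dendritic cells (1.08 to 1.69 TPM) and 3 for fibroblasts (0.02 to 1.78 TPM), and from the reads these were 2, 4 and 5.

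Tlr1 was the highest member and Tlr5 the lowest. The 9 detected members spanned means of 3.40 to 171 TPM, and the whole family summed to 318, 354 and 408 TPM in replicates 1, 2 and 3. The median of the 10 member means was 18.5 TPM, against 7.32 TPM over the 10952 detected protein-coding genes. The 9 detected of 10 members stand beside 49.7% of all protein-coding genes detected. Both figures describe the members and are no test, since the members were chosen with earlier results of these libraries known.

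**Figure D1:**
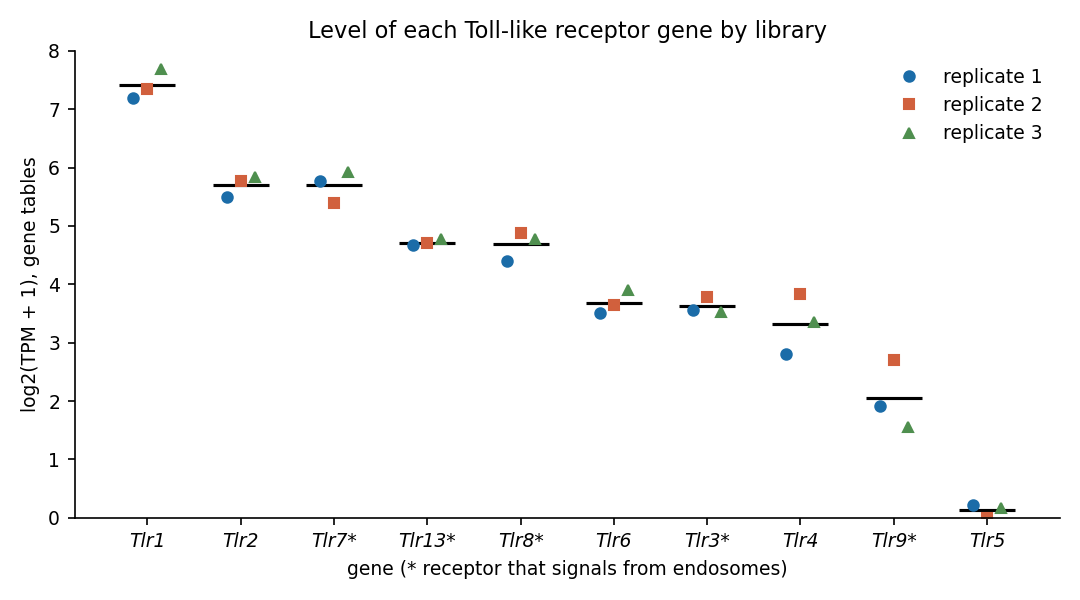
Level of each of the 10 genes on the log2(TPM + 1) scale in the gene tables, with 1 point per library and a bar at the mean of the 3 log values. Tlr1 lies above all other members in every library, Tlr5 lies at or near 0, and replicate 2 is the highest library for Tlr3, Tlr4, Tlr8 and Tlr9.

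Among the surface receptors, Tlr2 encodes the shared subunit of the lipopeptide receptors, which pairs with the product of Tlr1 for triacylated and with that of Tlr6 for diacylated lipopeptides. Tlr1 (ENSMUSG00000044827.10, chromosome 5, 64924679 to 64933563, minus strand of mm10) had 146, 162 and 204 TPM in replicates 1, 2 and 3. That gave 171 ± 30.1 TPM (SD, n = 3), which placed its mean above 98.6% of the 22028 protein-coding genes. Tlr2 (ENSMUSG00000027995.10, chromosome 3, 83836272 to 83841767, minus strand) had 44.2, 53.8 and 56.4 TPM, or 51.5 ± 6.45. Tlr6 (ENSMUSG00000051498.6, chromosome 5, 64952031 to 64960097, minus strand), the neighbour of Tlr1, had 10.4, 11.5 and 14.0 TPM, or 12.0 ± 1.86. The 3 genes kept this order in every library. In these bulk samples, fewer cells with a transcript and less of it per cell cannot be told apart. Within a library, the TPM of Tlr1 was 3.31 ± 0.302 times that of Tlr2, and the TPM of Tlr6 was 0.232 ± 0.0173 times that of Tlr2. Tlr1 over Tlr2 was 4.35 ± 0.710 from the reads, 2.09 ± 0.201 on transcripts of at least 1000 bases in the alignment and 2.04 ± 0.198 on counts, so its size depended on the table and on length. Tlr1 over Tlr6 was 14.2 ± 0.285 on the TPM of the gene tables, with 14.1, 14.1 and 14.6 in the 3 libraries. In the table made from the reads the same ratio was 14.6 ± 2.70, so its narrow spread belonged to the gene tables. It was 10.6 ± 0.515 on transcripts of at least 1000 bases in the alignment and 8.27 ± 0.427 on counts not divided by length.

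Tlr1 and Tlr6 share identical sequence, from which fragments have to be divided between them. Of the 45 pairs of members, only Tlr1 and Tlr6 shared any stretch of 31 bases in their annotated transcripts, and they shared 607 such words, 18.3% of those of Tlr1 and 16.4% of those of Tlr6. The longest identical run, 229 bases within the coding sequence of both, is shown because a fragment inside it cannot be placed in either gene by sequence. It is printed with 20 flanking bases on each side, 5′ to 3′ on the minus strand, from the GENCODE M21 transcripts at chr5:64925517-64925785 for Tlr1 and chr5:64953808-64954076 for Tlr6, and capitals mark the 2.0 bases that differ.
Tlr1: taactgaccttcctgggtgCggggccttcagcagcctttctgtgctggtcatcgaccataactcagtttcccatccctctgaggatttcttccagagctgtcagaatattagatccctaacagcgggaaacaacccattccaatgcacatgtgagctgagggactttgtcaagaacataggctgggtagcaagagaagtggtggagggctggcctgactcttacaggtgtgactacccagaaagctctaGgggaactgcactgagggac
Tlr6: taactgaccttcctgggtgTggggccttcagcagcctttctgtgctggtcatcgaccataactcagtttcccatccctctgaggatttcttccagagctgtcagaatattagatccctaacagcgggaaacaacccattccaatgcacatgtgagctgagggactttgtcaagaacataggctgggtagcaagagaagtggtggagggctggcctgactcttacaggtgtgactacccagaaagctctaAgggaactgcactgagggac
The gene tables also gave a posterior SD of each count, the uncertainty left by the assignment of fragments. It was 2.57 to 2.74 counts for each of them, where Tlr1 held 3610 to 4589 and Tlr6 412 to 571 counts, and 0 for Tlr2. The assignment within this stretch was not tested.

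Tlr4 (ENSMUSG00000039005.13, chromosome 4, 66827584 to 66930284, plus strand), the receptor of the Lipid A used here, had 5.98, 13.2 and 9.22 TPM in replicates 1, 2 and 3, or 9.46 ± 3.61 (n = 3). Its highest library was replicate 2 and its lowest replicate 1. The TPM of Tlr4 was 0.181 ± 0.0569 times that of Tlr2 in the gene tables and 0.39 ± 0.065 times from the reads. Tlr5 (ENSMUSG00000079164.8, chromosome 1, 182954788 to 182976044, plus strand), the flagellin receptor, had 3, 0 and 4 counts, or 0.16, 0 and 0.12 TPM, below the minimum for detection. From the reads it had 4, 0 and 10 counts. Tlr11 and Tlr12, which are outside the family list used here and are named for completeness after their values were seen, had 12, 14 and 7 counts and 1, 2 and 2 counts.

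Among the endosomal receptors, Tlr7 was the highest and Tlr9 the lowest. Tlr7 (ENSMUSG00000044583.13, chromosome X, 167304929 to 167330558, minus strand), a sensor of RNA, had 53.6, 41.0 and 59.5 TPM in replicates 1, 2 and 3, or 51.3 ± 9.45. Tlr8 (ENSMUSG00000040522.5, chromosome X, 167242696 to 167264329, minus strand), its neighbouring paralog, whose human counterpart senses RNA, had 20.2, 28.4 and 26.3 TPM, or 25.0 ± 4.29. Tlr7 was the lowest in replicate 2, the library in which Tlr8 was the highest on the TPM scale, while on CPM scaled by edgeR's TMM factors replicate 2 was the lowest for both. The ratio of their TPM was 2.66, 1.44 and 2.26 in the 3 libraries of the gene tables, and 9.64, 4.35 and 8.90 from the reads. Tlr13 (ENSMUSG00000033777.4, chromosome X, 106143204 to 106160493, plus strand), which recognises bacterial ribosomal RNA and has no human counterpart, had 24.4, 25.2 and 26.2 TPM, or 25.3 ± 0.931. Its coefficient of variation of 3.7% was the smallest in the family on the TPM scale, where the family median was 17.4%, against 23.7% over detected protein-coding genes. On TMM-scaled CPM the smallest spread was that of Tlr8. Tlr3 (ENSMUSG00000031639.12, chromosome 8, 45395665 to 45411080, minus strand), the sensor of viral RNA helices, had 10.7, 12.8 and 10.6 TPM, or 11.4 ± 1.25. It is the member that overlaps another annotated gene, the antisense gene Gm45542, which had 1, 3 and 1 counts. Tlr9 (ENSMUSG00000045322.10, chromosome 9, 106222598 to 106226883, plus strand), the sensor of unmethylated CpG DNA, had 2.78, 5.50 and 1.93 TPM, or 3.40 ± 1.86. Its 3 libraries held 127, 253 and 83 counts, and the highest was 2.85 times the lowest on the TPM scale.

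Ordered by mean TPM in the gene tables, the family ran Tlr1, Tlr2, Tlr7, Tlr13, Tlr8, Tlr6, Tlr3, Tlr4, Tlr9 and Tlr5. Of the 9 neighbouring pairs in that order, 5 did not overlap in their 3 values. These were Tlr1 above Tlr2, Tlr7 above Tlr13, Tlr8 above Tlr6, Tlr4 above Tlr9 and Tlr9 above Tlr5. Tlr2 and Tlr7 overlapped, as did Tlr13 and Tlr8, Tlr6 and Tlr3, and Tlr3 and Tlr4, so their order is not set by the gene tables. From the reads Tlr7 had 242, 157 and 258 TPM, against 43.6, 42.7 and 45.0 for Tlr2. Tlr6 and Tlr4 also lay above Tlr3 there without overlap, while Tlr13 and Tlr8 still overlapped. With 3 libraries an exact two-sided test of paired differences cannot give a p below 0.25, and none is given. Over the 3 libraries the protein-coding genes closest to Tlr1 in level, among 10951 compared by the distance of log2(TPM + 1), were Eif5, Gadd45b and Cln3, at distances of 0.0558, 0.0652 and 0.0716. Eif5 encodes a translation initiation factor, Gadd45b a stress-response protein and Cln3 a lysosomal membrane protein.

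The family looked different in the transcript table that was made directly from the reads. There Tlr7 averaged 219 ± 54.2 TPM, against 51.3 ± 9.45 in the gene tables, and it stood first in replicates 1 and 3. In the 3 libraries the ratio of the value from the reads to that in the gene tables was 2.18, 1.94 and 2.12 on the log2 scale for Tlr7, with a mean of 2.08 ± 0.124 or 4.22-fold. The same ratio had a median of 0.39 over 10934 protein-coding genes and that of Tlr7 lay at percentile 94.6. Tlr1 averaged 191 ± 36.1 TPM from the reads, against 171 ± 30.1 in the gene tables, and Tlr4 averaged 16.8 ± 2.55, against 9.46 ± 3.61. Tlr2 averaged 43.8 TPM from the reads, against 51.5 in the gene tables, and Tlr9 averaged 2.51, against 3.40. Tlr2 and Tlr9 are the members with 1 annotated transcript each.

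The excess of Tlr7 lay in 3 short transcripts. Tlr7-206, a non-coding transcript of 261 bases, had 106, 75.6 and 135 TPM from the reads in replicates 1, 2 and 3, against 2.87, 0 and 1.56 TPM in the transcript table of the alignment. As counts these were 180, 176 and 282 from the reads, against 3, 0 and 1 in the alignment. Tlr7-204 and Tlr7-205, of 384 and 366 bases, took 22.8% and 10.9% of the TPM of Tlr7 from the reads, and Tlr7-206 took 48.1% ± 4.43. Together the 3 short transcripts held 81.8% ± 1.17 of the TPM of Tlr7 from the reads and 14.4% ± 0.56 of its counts, so a small share of the counts carried most of the level per length. In the transcript table of the alignment they held 6.75% ± 2.83 of the TPM. The full-length coding transcripts Tlr7-201 and Tlr7-202 held 11.2% and 4.55% of the TPM from the reads, and 74.8% and 14.8% in the alignment. The last exon of Tlr7-206 is shown because no other Tlr7 transcript contains it. It lies at chrX:167317680-167317798 on the minus strand, in the long intron between the second and the last exon of the coding transcript Tlr7-201, and is printed 5′ to 3′ from GENCODE M21 with no part marked.
Tlr7-206: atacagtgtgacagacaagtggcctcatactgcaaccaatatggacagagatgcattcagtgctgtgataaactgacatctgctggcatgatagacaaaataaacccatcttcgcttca
Of the 89 words of 31 bases in this exon, 0 occurred in the annotated transcripts of another gene. Chromatin RNA holds unspliced transcripts whose introns cover this exon, and their part in the level of Tlr7-206 was not tested.

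**Figure D2:**
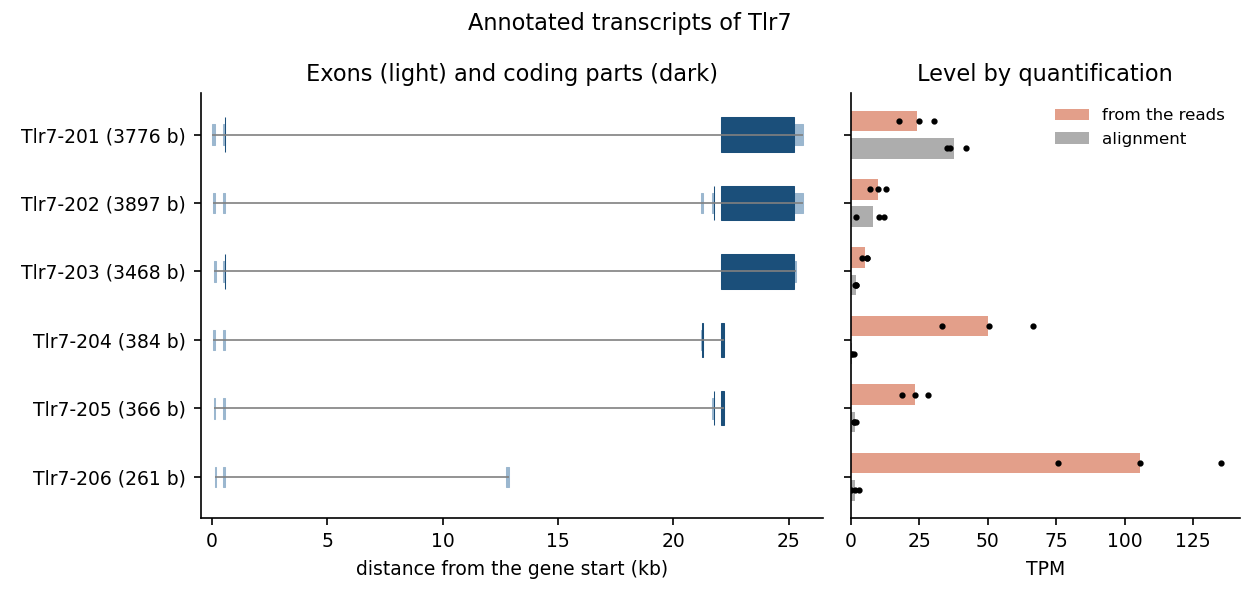
The 6 annotated transcripts of Tlr7 by distance from the gene start in kb, with thin lines for introns, and beside them their TPM from the reads and in the alignment, with bars for the mean and points for the 3 libraries. Tlr7-201 leads in the alignment, whereas Tlr7-206, which ends inside the long intron, leads from the reads.

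A short transcript also took a large share of Tlr1, in both tables. The non-coding Tlr1-203, of 419 bases, had 76.3, 88.7 and 128 TPM from the reads, or 50.8% ± 5.68 of the TPM of Tlr1. In the alignment it had 51.7, 61.4 and 76.0 TPM, or 36.9% ± 1.21. As counts it was 8.09% ± 1.43 of Tlr1 from the reads and 3.97% ± 0.37 in the alignment. The stretch of Tlr1-203 found in no other Tlr1 transcript is shown because much of it is a simple repeat. It lies at chr5:64933101-64933324 on the minus strand of mm10, inside the intron after the first exon of Tlr1-202, and capitals mark the run of CT and GT repeats, which covers 106 of its 224 bases.
Tlr1-203: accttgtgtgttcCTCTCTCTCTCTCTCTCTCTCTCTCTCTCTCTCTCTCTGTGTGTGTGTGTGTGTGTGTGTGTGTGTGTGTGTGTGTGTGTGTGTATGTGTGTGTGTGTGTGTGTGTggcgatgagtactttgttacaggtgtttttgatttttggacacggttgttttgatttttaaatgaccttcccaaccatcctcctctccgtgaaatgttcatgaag
Of its 194 words of 31 bases, 42.8% occurred in annotated transcripts of other genes, 3645 of them in all. How far reads from other loci entered Tlr1-203 was not tested. The coding transcripts Tlr1-201 and Tlr1-202 start at different first exons. Tlr1-201 held 70.6% and Tlr1-202 21.3% of the counts of Tlr1 from the reads, and 73.8% and 22.2% in the alignment.

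The other members with several transcripts divided into the same kinds. The retained-intron transcript Tlr13-202, of 337 bases, took 58.8% ± 1.75 of the TPM of Tlr13 from the reads, against 27.6% ± 3.11 in the alignment, on 5.37% and 1.14% of its counts. The full-length Tlr13-201 held the remainder. The non-coding Tlr8-204, of 387 bases, took 39.4% ± 7.94 of Tlr8 from the reads, against 3.66% ± 1.73 in the alignment. Tlr8-201, which lies wholly within Tlr8-202, held 0% of the counts of Tlr8 from the reads and 52.4% in the alignment, so the split between these 2 differed with the quantification. For Tlr4, the non-coding Tlr4-204 and the coding Tlr4-202 held 26.1% and 31.9% of the TPM from the reads, against 0% and 0.97% in the alignment. The full-length Tlr4-201 held 41.2% from the reads and 97.3% in the alignment. The coding transcript Tlr8-203, of 485 bases, held 6.91% of Tlr8 from the reads and 8.18% in the alignment. The protein-coding transcripts of Tlr6, Tlr6-201 and Tlr6-202, held 100% of its TPM in both tables, of which the short Tlr6-202 held 32.1% ± 10.6 from the reads and 15.4% ± 3.83 in the alignment.

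The transcript of Tlr3 with the highest TPM was not the same in every library, in both tables. Tlr3-205 had 5.95, 2.30 and 3.05 TPM from the reads and 4.91, 0.92 and 4.49 TPM in the alignment, in replicates 1, 2 and 3. Tlr3-201 had 0.753, 2.77 and 1.31 TPM from the reads and 0.48, 3.29 and 1.03 TPM in the alignment. In both tables replicate 2 was the library with most Tlr3-201 and least Tlr3-205, and the only library with more Tlr3-201 than Tlr3-205. Tlr3-201 has 131 exonic bases that no other coding transcript of at least 1000 bases shares, and Tlr3-205 has 81. These are counted against all such transcripts together and do not measure the difference between Tlr3-201 and Tlr3-205 alone. Tlr3-206 held 12.1% ± 2.41 of the TPM of Tlr3 from the reads and 24.9% ± 4.41 in the alignment, and the short Tlr3-208 held 11.8% ± 1.77 and 17.4% ± 5.64. Tlr3-209, Tlr3-203 and Tlr3-202 held 9.75%, 6.25% and 0% from the reads, and 3.60%, 1.67% and 7.35% in the alignment. From the reads alone the leading transcript also differed between libraries for Tlr1, where Tlr1-201 led in replicate 1 by 76.8 to 76.3 TPM and Tlr1-203 in the 2 others. The same held for Tlr8, where Tlr8-204 led in replicate 2 with 47.9% of the TPM, next to 44.7% for Tlr8-202, which led in the 2 others.

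The share of the family level in the endosomal receptors depended on the table. It was 52.7% ± 3.56 from the reads and 32.5% ± 2.36 in the gene tables (n = 3 libraries). With transcripts of at least 1000 bases only, an alternative chosen after the data were seen, the share was 33.4% ± 2.08 from the reads and 36.0% ± 2.12 in the alignment. By library these were 35.8%, 32.3% and 32.0% from the reads, against 38.4%, 35.2% and 34.4% in the alignment, so the order of the tables turned round in every library. Tlr7 alone held 38.7% ± 5.18 of the family TPM from the reads and 14.3% ± 2.64 in the gene tables, and 16.6% and 17.2% with long transcripts only. On long transcripts Tlr7 had 39.7 ± 9.29 TPM from the reads and 47.8 ± 8.42 in the alignment, and Tlr1 had 93.0 ± 12.8 and 108 ± 18.1, so Tlr1 was the highest member in both.

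**Figure D3:**
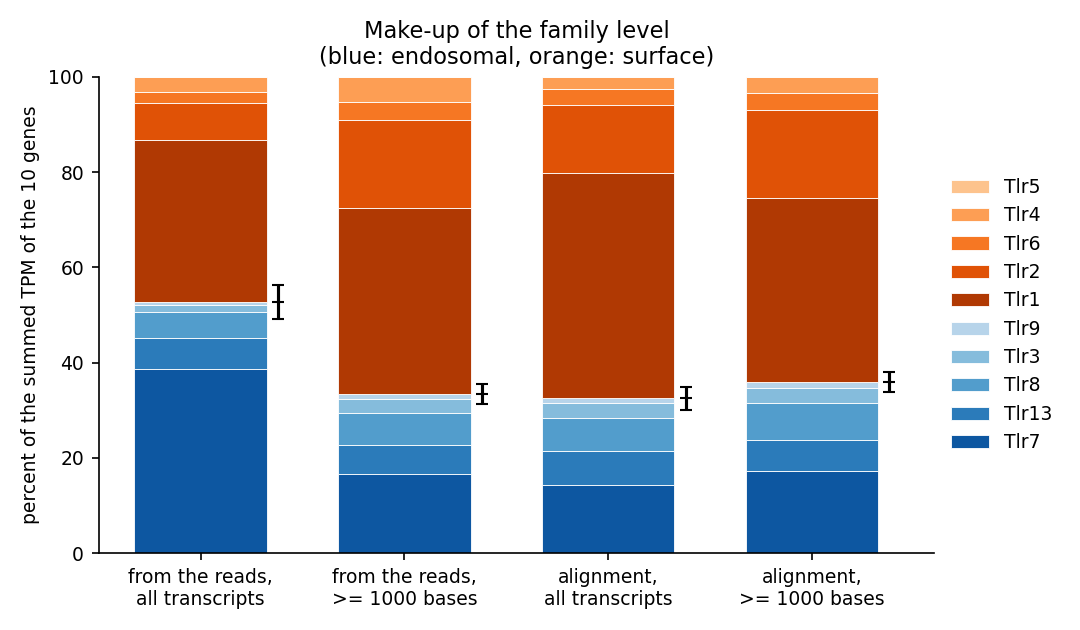
Mean share of each member in the summed TPM of the 10 genes, for the table made from the reads and for the alignment, with all transcripts and with those of at least 1000 bases. Blue parts are endosomal and orange parts surface receptors, and the bars with caps mark the endosomal share with its SD over the 3 libraries, which is 52.7% from the reads with all transcripts and 32.5% to 36.0% in the other 3 columns.

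Most members differed between the 3 libraries by more than counting noise. Of the 9 members with a mean of at least 10 counts, 8 did so by a chi-square test against Poisson sampling on counts scaled by trimmed mean of M values (TMM), at a Benjamini-Hochberg adjusted p below 0.05 over all 14330 genes tested. That is set beside 54.9% of all genes tested and 71.6% of the 8095 genes that averaged at least 100 counts, so the count of members was not far from that of other well-counted genes. Tlr8 was the member that did not pass, with 56.5, 56.1 and 60.4 TMM-scaled CPM in replicates 1, 2 and 3. Its tagwise biological coefficient of variation, edgeR's estimate of the spread between libraries beyond counting, was 0.166. That was near the bottom of all genes, at percentile 0.6. Such an estimate is drawn toward the trend over genes of similar level, which was 0.189 for Tlr8. The 0.166 is thus no measure of the spread of Tlr8 alone. Tlr9 had the largest value in the family, 0.292 at percentile 83.2, against a median of 0.221 over all genes tested. The median of the 9 members was 0.188.

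Replicate 2 set much of this pattern. Tlr7 had 177, 106 and 171 TMM-scaled CPM, and Tlr1 264, 209 and 296, with replicate 2 the lowest for both. Tlr2, Tlr6 and Tlr13 were also lowest in replicate 2, with 115, 26.1 and 55.1 CPM there. This depends on the scaling, since on the TPM scale Tlr1, Tlr2, Tlr6 and Tlr13 were lowest in replicate 1. On CPM without TMM factors Tlr2 was nearly level, with 125, 123 and 126 in replicates 1, 2 and 3. Tlr4 had 23.6, 36.7 and 30.2 TMM-scaled CPM and Tlr9 9.28, 13.7 and 5.36, with replicate 2 the highest for both. Without replicate 2, 5 of 9 members passed the test, and Tlr2, Tlr7 and Tlr13 no longer did, while 27.9% of all genes passed. Replicate 2 had the least RNA input and the most counts, and the part of either was not tested. Between the 2 other libraries Tlr9 still differed. Of 6 markers of B cells, which are known for high Tlr9, 1 was detected in the gene tables and 2 from the reads, and their summed level was 4.35, 4.57 and 2.70 TPM in replicates 1, 2 and 3 of the gene tables. On the TPM scale that follows the order of Tlr9, and its part was not tested. Cd22 made up most of that sum with 4.13, 4.37 and 2.45 TPM. On CPM without TMM factors Cd22 had 9.49, 9.31 and 4.97, with replicate 1 the highest. The match in order therefore depends on the scaling.

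**Figure D4:**
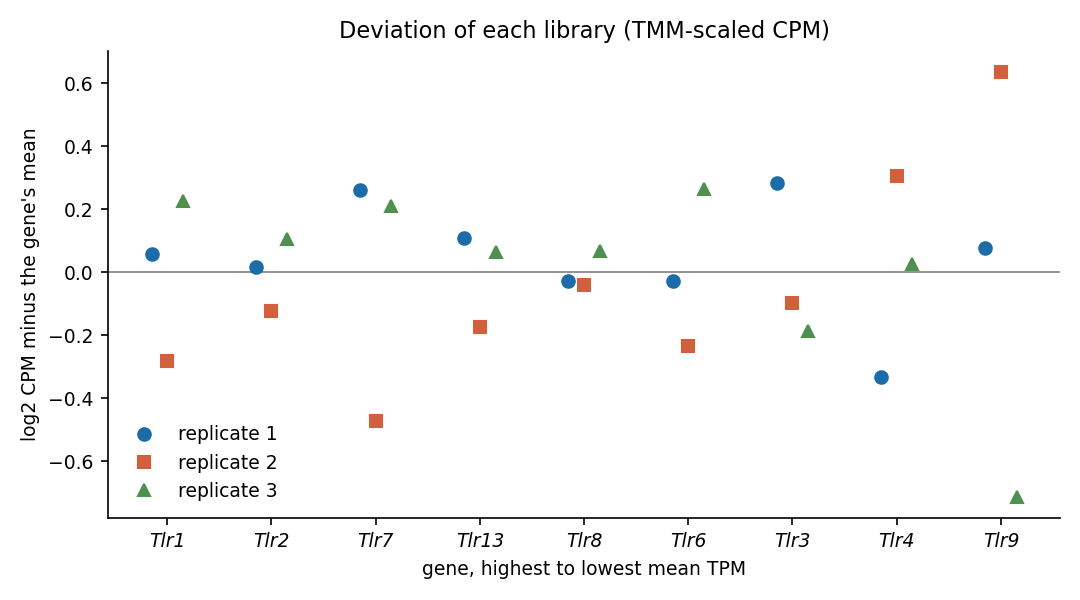
Deviation of each library from the gene's mean of log2 TMM-scaled CPM for the 9 detected members, ordered by mean TPM. Replicate 2 lies below the other libraries for Tlr1, Tlr2, Tlr7, Tlr13 and Tlr6 and above them for Tlr4 and Tlr9, and the 3 libraries lie between -0.04 and 0.07 for Tlr8.

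RefSeq promoter windows of GRCm38.p6, each of 300 bases from 250 before a gene's start to 50 after it, were matched for 8 of the 10 members, Tlr1 and Tlr6 with 2 windows each, and not for Tlr4 and Tlr7. Short motifs were searched on both strands, and a match is a description of letters and no binding site. GANTTTCC, part of the NF-kB site, was found in 1 of the 10 windows, that of Tlr3, against 4.0% of all 32851 windows. TGANTCA, the AP-1 site, was found in the window of Tlr9, against 7.81% of all windows. GAGGAAGT, the core bound by PU.1 in macrophages, was found in windows of Tlr1 and Tlr9, against 3.2%. AANNGAAA, part of the interferon-stimulated response element, was found in 4 windows, of Tlr1, Tlr2, Tlr3 and Tlr6, against 23.9%. No window held more than 2 of the 4 motifs. The 250 bases upstream of the start are shown for the highest member, Tlr1 at its upstream start (chr5:64933559-64933808, minus strand), for the member with the largest spread, Tlr9 (chr9:106222348-106222597, plus strand), and for the undetected Tlr5 (chr1:182954538-182954787, plus strand), 5′ to 3′ on the strand of the gene, with motif matches in capitals.
Tlr1: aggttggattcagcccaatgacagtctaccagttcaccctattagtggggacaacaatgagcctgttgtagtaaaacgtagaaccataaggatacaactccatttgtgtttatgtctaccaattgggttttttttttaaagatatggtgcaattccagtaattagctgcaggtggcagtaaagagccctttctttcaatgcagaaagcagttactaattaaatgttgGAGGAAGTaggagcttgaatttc
Tlr9: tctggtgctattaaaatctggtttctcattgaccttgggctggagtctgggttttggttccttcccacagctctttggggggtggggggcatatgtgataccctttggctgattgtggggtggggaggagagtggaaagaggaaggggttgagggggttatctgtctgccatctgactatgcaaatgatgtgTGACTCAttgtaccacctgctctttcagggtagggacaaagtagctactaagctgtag
Tlr5: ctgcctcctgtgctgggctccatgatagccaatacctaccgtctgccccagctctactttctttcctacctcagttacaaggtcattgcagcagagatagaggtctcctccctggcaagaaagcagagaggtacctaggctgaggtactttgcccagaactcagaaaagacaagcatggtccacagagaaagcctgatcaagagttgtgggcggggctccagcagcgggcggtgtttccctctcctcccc
The capitals mark GAGGAAGT in Tlr1 and the AP-1 match TGACTCA in Tlr9. The match to GAGGAAGT in Tlr9 lies after the start and is not in the printed part, and Tlr5 held none of the 4 motifs in this window.

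The genes that carry the signal from the receptors were mostly detected in the gene tables, on which the counts here rest. Of all protein-coding genes 49.7% were detected there. Of 15 adaptors and proximal kinases 14 were detected, at a list median of 12.5 TPM. Of the 14 tested, 11 differed between libraries beyond counting noise, beside 54.9% of all genes tested and 71.6% of those averaging at least 100 counts. The highest were Pik3ap1, which links receptors to PI3 kinase, with 299, 308 and 337 TPM, and the kinase Irak2 with 189, 142 and 215 TPM. Myd88 had 35.3 ± 2.02 TPM and Ticam1 6.50 ± 1.80. Sarm1, an adaptor best known for its role in neurons, was not detected in the gene tables, at a mean of 1 count, and averaged 10.3 counts from the reads. Of 12 cofactors and chaperones 11 were detected, and 7 of the 11 differed between libraries, beside the same 54.9% of all genes tested and 71.6% of those averaging at least 100 counts. The highest were Unc93b1, which carries the endosomal receptors out of the endoplasmic reticulum, with 208, 293 and 262 TPM, and Cd180, a surface relative of Tlr4, with 158, 222 and 189 TPM. Cd14, which hands lipopolysaccharide to the receptor, had 121 ± 35.3 TPM, and Ly96, the partner of Tlr4, had 21.9 ± 1.84 TPM from the reads and 9.74 ± 1.55 TPM in the gene tables. Lrrc32 was not detected in the gene tables, at a mean of 0.67 counts, and averaged 20.4 counts from the reads.

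All 10 endosomal proteases and nucleases were detected, at a list median of 55.6 TPM, and 8 differed between libraries, beside the same 54.9% and 71.6%. Ctsb, a cathepsin of lysosomes, had 286, 407 and 330 TPM, and Pld4, an exonuclease that trims nucleic acids in endosomes, had 198, 344 and 257 TPM, with replicate 2 the highest for both. Of 10 inhibitors of the receptors 8 were detected, and all 8 differed between libraries, beside the same 54.9% and 71.6%. Tnfaip3, a ubiquitin-editing inhibitor of NF-kB, had 505, 381 and 753 TPM, and Trim30a, which restrains signalling downstream of the receptors, had 225, 235 and 281 TPM. Sigirr and Il1rl1 were not detected in the gene tables, at means of 2.00 and 0.33 counts, whereas from the reads Il1rl1 averaged 103 counts and Sigirr 3.33. The numbers detected in the lists stand beside the 49.7% of all protein-coding genes detected. The 4 lists were chosen with earlier results of these libraries known, so their counts describe them and test nothing.

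**Figure D5:**
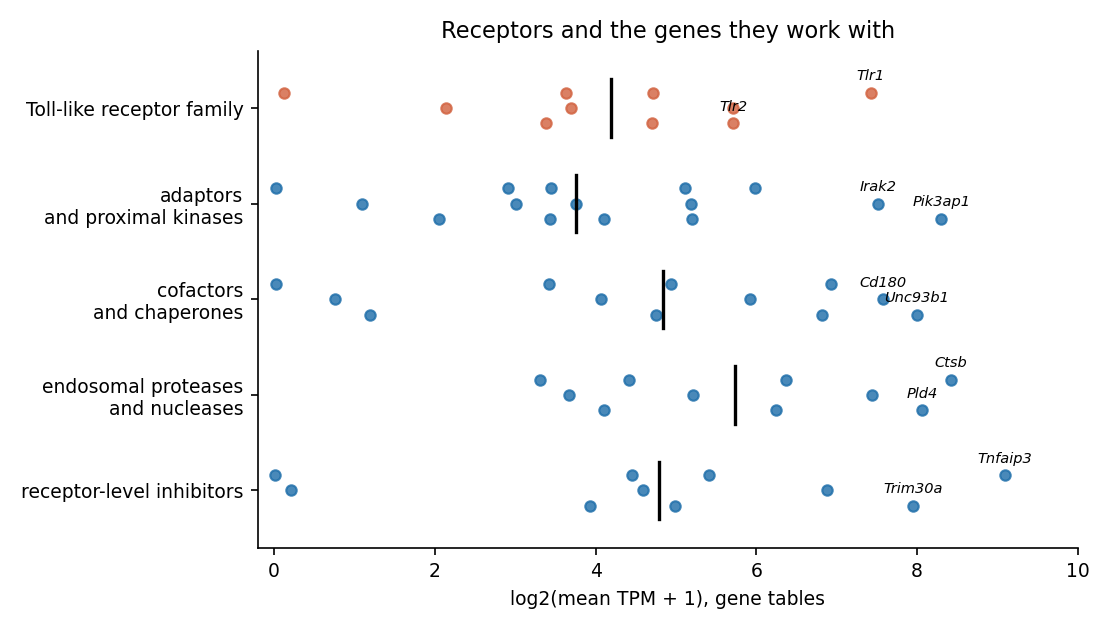
Mean level on the log2(TPM + 1) scale of the 10 receptor genes and of 4 lists of genes that work with them, with 1 point per gene, a bar at the list median and the names of the highest genes. Points are moved up and down within a list for legibility only, and the list medians are 18.5 TPM for the receptors and 12.5 to 55.6 TPM for the other lists.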

How the data were processed

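Chromatin-fraction RNA of 3 libraries in 1 group was analysed. Per the file headers and the labels, the authors deposited gene and transcript tables (columns as in RSEM output) with expected counts and TPM, from reads aligned to mm10 transcripts of GENCODE M21, and a transcript table of estimated counts and TPM (columns as in kallisto output) from the reads. The use of strand, like program versions, is not given in the sources used here. Posterior SDs, as deposited, are in counts. Values of the table made from the reads were summed to genes. Entries naming no gene, of which the phiX control held 1.13% of the counts in replicate 1, were left out. Counts were rounded for edgeR 4.0.16 and DESeq2 1.42.0 (R 4.3.3), whose size factors were an alternative. The spread used an intercept-only design, TMM factors and genes averaging at least 10 counts. Only the chi-square test was run on simulated counts, which were drawn by the Poisson sampling it assumes. The biological coefficient of variation was not. Log2 TPM used a pseudocount of 1. Python 3.11.15, pandas 2.3.3 and numpy 2.4.6 made the other tables. The text names all 10 members, transcripts with at least 5% of a detected member's TPM, and of each list the 2 highest genes and those not detected, with Myd88, Ticam1, Cd14 and Ly96 named in addition after their values were seen. Members and lists were chosen with earlier results of these data known.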

Additional observations from a re-analysis of the deposited data

How the results depend on the processing

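Of the 10 members, 9 were detected under all 6 alternatives, which were a mean of 5 counts, 10 counts in every library, the reads quantification and leaving out each library. The number differing between libraries was 8 of 9 with DESeq2 size factors, 8 of 10 with no minimum count and 8 of 9 from the reads. Of all genes tested, 54.6%, 32.4% and 55.1% passed in these settings. With total count scaling 6 of 9 passed, beside 60% of all genes, and Tlr2 and Tlr13 no longer did. Leaving out replicates 1, 2 and 3 in turn, 7, 5 and 7 of 9 passed, beside 43.5%, 27.9% and 41.6% of all genes. Tlr8 did not pass under any of these settings. The endosomal share of the family level was 52.7% from the reads, 41.0% on counts not divided by length and 36.0% on transcripts of at least 1000 bases in the alignment, against 32.5% in the gene tables, and 31.2% to 33.5% when 1 library was left out. The number of neighbouring pairs that did not overlap was 5 or 6 under all 4 alternatives, but the pairs and the order were not the same. From the reads Tlr7 had the highest mean. There Tlr4, with 14.7, 19.6 and 16.2 TPM, lay above Tlr3, with 9.22, 8.95 and 8.55 TPM. Mean TPM from the reads moved by more than the SD for 6 of 10 members, and rescaling TPM over protein-coding genes raised all 10, by its construction. The median over members of the SD of log2 TPM was 0.23, and 0.17 to 0.25 under its alternatives. The share of TPM in protein-coding transcripts moved by more than the SD between the tables for 6 of the 8 members with several transcripts. No paired analysis was possible because the series holds 1 group. Tlr5 had 0 to 4 counts per library in the gene tables, and the part of depth in this was not tested.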
